A study of Mus musculus with 12 samples.

Results

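Opposite-strand transcripts are RNAs read from the DNA strand that faces a named gene, and mouse nomenclature marks them by adding os to the symbol of that gene, its sense partner. The members described here were every row of the 2 deposited count tables whose name ended in os, with or without 1 digit, and whose name without that ending was also a row of the same table. The rule found 162 opposite-strand rows facing 149 partners among the 20775 genes of the chow table, and 195 rows facing 176 partners among the 22709 genes of the HFCF table. Together these made 205 pairs, of which 152 were listed in both tables, among 23391 genes listed in either.

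Natural antisense transcripts can be long noncoding RNAs or ordinary mRNAs. They may share a promoter with the partner, run through its introns or overlap its exons, and single examples are known to raise, lower or leave alone the expression of the facing gene. Several partners here, among them Hnf4a and Prox1, encode transcription factors of the hepatocyte. HuR, the product of Elavl1, is an RNA-binding protein that recognises AU-rich stretches in transcripts and alters their stability and export.

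The data were read counts from bulk liver RNA of 12 male C57BL/6N mice, 3 in each of 4 groups, with 1 library per liver. By the deposited labels every mouse carried floxed Elavl1 alleles (HuR flox/flox) and received an adeno-associated virus at 4 to 6 months of age: AAV8-Tbg-Cre, which drives Cre from a hepatocyte promoter, gave the mice labelled HuRHep-/-, and AAV8-Tbg-null gave those labelled WT. The study's methods use the same group names for the chow libraries but define them by an albumin-Cre cross, in younger mice, so the sources differ on how and when HuR was deleted in these livers. Livers were taken on normal chow or after 16 weeks of a high-fat, cholesterol and fructose diet (HFCF; 40 kcal% fat, 2% cholesterol and 20 kcal% fructose). Cre under either promoter is meant to act in hepatocytes, so RNA of the other liver cells in these samples would come from cells that kept HuR.

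The 4 comparisons were HuRHep-/- against WT within each diet, which by the labels ask about deletion of HuR, and HFCF against chow within each genotype. Library totals ran from 30.1 M to 35.9 M reads. Elavl1 itself went against the labels, with 876 to 948 reads under the WT label on chow and 1261 to 1475 under the HuRHep-/- label (log2 difference 0.41, limma adjusted p = 0.022), with 791 to 904 and 1242 to 1299 reads in HFCF (0.38, adjusted p = 0.033). Directions between genotypes are therefore given for livers as labelled. In CPM (reads scaled to library size), the 9 hepatocyte markers listed summed to 100775 to 122496 in chow livers labelled WT against 84115 to 90466 under the HuRHep-/- label, and to 78671 to 92373 against 73109 to 77897 in HFCF, with 0 of the 9 called and the lowest of them averaging 393 or more. The 8 Kupffer cell and macrophage markers summed to 134 to 173 CPM against 190 to 281 CPM on chow and to 237 to 381 CPM against 325 to 539 CPM in HFCF. On chow the neuron markers also stood apart, at 9.76 to 10.62 against 14.1 to 19.7 CPM, and 1 of the 2 tested was called higher. In HFCF the sums of cholangiocyte (59.3 to 112 against 159 to 278 CPM), lymphocyte (6.59 to 13.1 against 17.7 to 18.2), neutrophil (0.888 to 1.09 against 1.86 to 2.02) and smooth muscle markers (10.97 to 16.4 against 23.1 to 26.8) also stood apart between genotypes, with 3 of 7 tested cholangiocyte and 2 of 3 smooth muscle markers called higher. The part of these shifts in the genotype differences was not tested. In bulk liver, fewer cells of a type and less RNA per cell cannot be told apart. The diets came in separate tables, so diet, table and any sequencing run cannot be told apart.

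By the GENCODE annotation of GRCm38 all 205 pairs lay on opposite strands. In 123 pairs exons of both genes overlapped, in 43 the gene bodies overlapped but the exons did not, in 23 the genes stood head to head with starts within 2000 bases, and in 16 they lay apart. The opposite-strand gene was annotated as antisense RNA in 176 pairs and as protein coding in 10. In 18 of the 205 pairs its exons also overlapped another gene on its own strand. Among the 64 pairs tested in 12 libraries there were 8 of these. Strand alone cannot separate the reads of such genes. Hnf4aos (chr2:163493807-163541720, minus strand, antisense) began inside the Hnf4a gene (chr2:163506808-163572910, plus strand), 5097 bases before the nearest of 5 annotated Hnf4a transcript starts, and ran back across the far upstream start. Tbx3os1 (chr5:119570130-119671365, minus strand, antisense) overlapped exons of Tbx3 (chr5:119670669-119684724, plus strand) by 115 bases and began inside Tbx3, 347 bases past the nearest annotated Tbx3 start. Of 6 annotated Tbx3os1 transcripts, all but that overlapping Tbx3 started 43.8 kb or more from this point. The promoter window below is that of the start at Tbx3. Map2k3os (chr11:60920917-60931867, minus strand, antisense) faced away from Map2k3 (chr11:60932033-60952811, plus strand) with starts 166 bases apart.

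**Figure D1:**
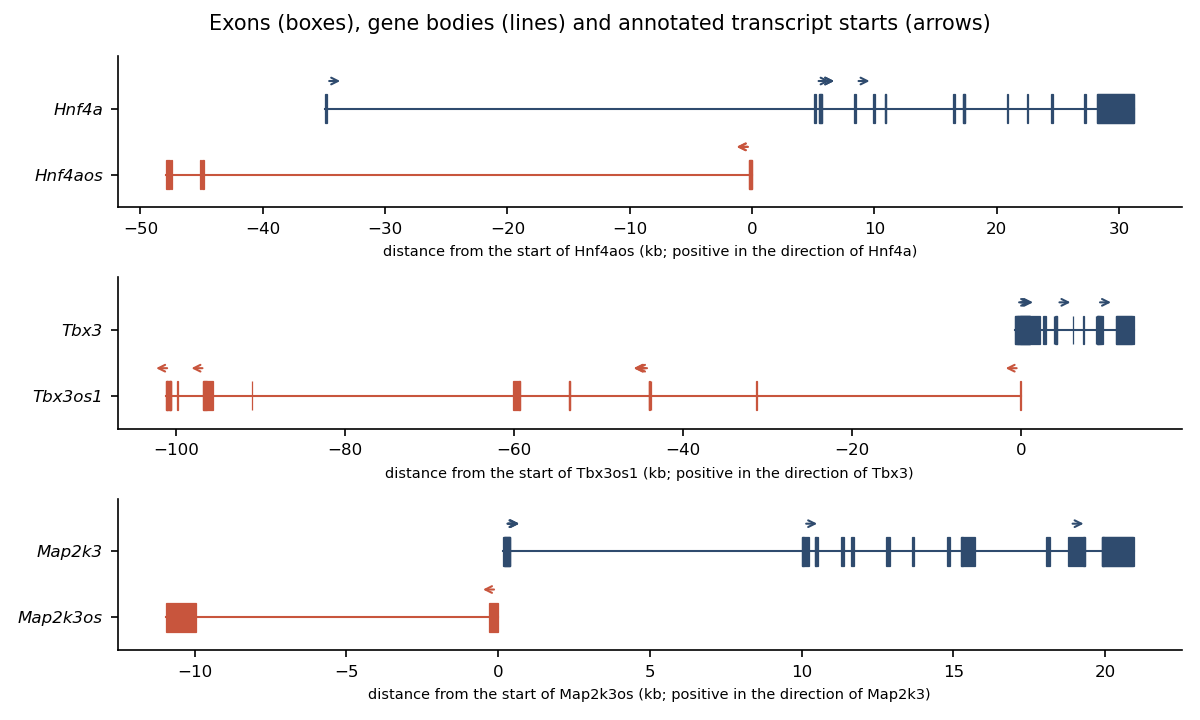
Gene maps of 3 pairs, drawn to scale within each panel. The x axis is the distance in kb from the start of the opposite-strand gene, blue marks the sense partner, red the opposite-strand gene, boxes are exons and arrows annotated transcript starts. Map2k3os and Map2k3 start 166 bases apart and face away from each other, whereas Tbx3os1 overlaps exons of Tbx3 by 115 bases.

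Promoter windows of 300 bases (250 before and 50 after the RefSeq start, GRCm38.p6) are shown with the 50 transcribed bases in capitals. The Hnf4a start used is the nearest downstream in RefSeq (163547155), not the GENCODE start 5097 bases from Hnf4aos. Windows are given for Hnf4aos and Tbx3os1, which were called between genotypes on chow, and for that Hnf4a start. They are Hnf4aos (chr2:163541672-163541971, minus strand), the Hnf4a window downstream of it (chr2:163546905-163547204, plus strand) and Tbx3os1 (chr5:119671459-119671758, minus strand).
Hnf4aos: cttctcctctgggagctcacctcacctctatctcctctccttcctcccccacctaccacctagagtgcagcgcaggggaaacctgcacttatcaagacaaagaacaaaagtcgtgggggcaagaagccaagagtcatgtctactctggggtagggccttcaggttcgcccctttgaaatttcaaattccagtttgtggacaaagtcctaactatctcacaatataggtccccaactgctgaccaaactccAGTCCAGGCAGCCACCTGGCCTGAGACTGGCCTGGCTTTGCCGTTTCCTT
Hnf4a: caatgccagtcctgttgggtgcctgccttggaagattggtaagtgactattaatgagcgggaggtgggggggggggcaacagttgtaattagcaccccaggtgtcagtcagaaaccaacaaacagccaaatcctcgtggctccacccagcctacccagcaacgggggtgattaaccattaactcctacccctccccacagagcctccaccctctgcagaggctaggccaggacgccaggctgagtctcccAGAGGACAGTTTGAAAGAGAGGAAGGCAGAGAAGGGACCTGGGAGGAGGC
Tbx3os1: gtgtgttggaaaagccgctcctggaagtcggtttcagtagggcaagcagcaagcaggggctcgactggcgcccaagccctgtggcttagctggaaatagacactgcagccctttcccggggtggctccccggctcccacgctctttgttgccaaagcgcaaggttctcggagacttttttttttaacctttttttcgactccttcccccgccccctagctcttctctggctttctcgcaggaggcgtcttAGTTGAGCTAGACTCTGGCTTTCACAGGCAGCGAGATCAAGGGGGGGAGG

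The Map2k3 window (chr11:60931804-60932103, plus strand) holds both starts of its pair, which RefSeq places 187 bases apart, and the 186 bases between them are in capitals because both RNAs are read outward from that stretch.
Map2k3: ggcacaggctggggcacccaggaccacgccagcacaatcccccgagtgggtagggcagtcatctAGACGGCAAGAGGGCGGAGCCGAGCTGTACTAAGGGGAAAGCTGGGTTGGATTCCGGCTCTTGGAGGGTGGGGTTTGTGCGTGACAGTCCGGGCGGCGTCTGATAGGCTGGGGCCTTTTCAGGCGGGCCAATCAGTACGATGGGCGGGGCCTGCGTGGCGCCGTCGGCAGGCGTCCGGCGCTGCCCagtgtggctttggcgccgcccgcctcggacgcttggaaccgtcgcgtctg

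The window held 28 CG dinucleotides, compared with 4 in each of the Hnf4aos and Hnf4a windows, 14 in that of Tbx3os1 and a median of 7 over all 32851 RefSeq windows. Searched on both strands, CCAAT was found in the Map2k3 and Hnf4a windows and in 37.4% of all windows, GGGCGG in the Map2k3 and Tbx3os1 windows and in 35.7% of all, and TATAAA in none of these 4 and in 13.6% of all. A RefSeq window was listed for 119 of the 205 opposite-strand names. Prox1os, Rapgef4os2 and Brip1os were not among them.

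AUUUA, the core word of AU-rich elements, was counted in the longest GENCODE transcript of each opposite-strand gene tested in 12 libraries. Of 64 such transcripts 15 held none, and the median was 1.04 words per kb. Hnf4aos held 0 in 839 bases, Tbx3os1 held 1 in 1787 bases, and Tnfsf13os held 2 in 816 bases. The 2 Tnfsf13os words are shown with up to 10 bases on either side because the ratio of this pair differed between genotypes at the smallest p possible, and capitals mark the word. They lie at chr11:69684457-69684481 in exon 1 and chr11:69691118-69691141 in exon 3 (plus strand, GRCm38), in this order.
Tnfsf13os word at base 139: cagugccguuAUUUAaaauagugcu
Tnfsf13os word at base 803: guaauuacacAUUUAcagacugcc

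Opposite-strand transcripts were scarce. They took 43425 reads in the 6 chow libraries (0.0213% of all reads) and 48848 in the 6 HFCF libraries (0.0241%), and the 6 highest rows held 51.0% and 53.7% of those. The median member had 16.5 reads summed over 6 chow libraries and 14 over 6 HFCF libraries, and the range was 1 to 6610 and 1 to 7479. The filter on low counts was passed by 56 of 162 rows in chow, 57 of 195 in HFCF and 64 of 152 over 12 libraries, against 128 of 149, 142 of 176 and 128 of 141 partners. All statements on change below concern only those that passed.

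Per kb of exon, the opposite-strand row lay above its partner in 21 of 64 pairs, and the median row stood at 39.2% of its partner. Wdr83os, Brip1os, Slc7a6os, Cebpzos and Lppos were among the highest rows by CPM. Wdr83os encodes a subunit of an endoplasmic reticulum membrane-protein chaperone complex and reached 33.4 CPM per kb, compared with 6.30 CPM per kb for Wdr83, which encodes a WD-repeat protein. Over 12 livers Wdr83os ran from 32.0 to 36.7 CPM, with no call in any comparison. Livers labelled HuRHep-/- lay above those labelled WT in both diets without overlap, by 0.11 on chow and 0.08 in HFCF (log2, limma adjusted p = 0.32 and 0.38). Brip1os lay at 3.28 CPM per kb and Brip1, a DNA-repair helicase, at 0.217 CPM per kb. Slc7a6os was at 3.67 CPM per kb and the amino acid transporter Slc7a6 at 0.0790 CPM per kb. Lppos was at 7.84 and Lpp, a focal adhesion protein, at 1.57 CPM per kb, and Cebpzos at 11.8 and Cebpz at 6.20 CPM per kb. In livers, Slc7a6os ran from 16.9 to 17.6 CPM on chow and from 12.8 to 15.4 CPM in HFCF, with no overlap between diets. It fell by 0.25 in livers labelled WT and by 0.39 in those labelled HuRHep-/- (log2, limma adjusted p = 0.022 and 0.0014), under the 1.5-fold limit. Brip1os ran from 18.2 to 23.2 CPM on chow and 21.3 to 23.4 CPM in HFCF, Cebpzos from 11.9 to 14.1 and 12.9 to 14.8 CPM, and Lppos from 11.8 to 15 and 9.47 to 15.1 CPM. Those 3 overlapped between diets in livers labelled WT but not in those labelled HuRHep-/-, where the log2 changes were 0.22, 0.21 and -0.30 (limma adjusted p = 0.025, 0.052 and 0.14), and none was called in any comparison.

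Hnf4aos ran the other way, at 5.18 CPM per kb against 91.0 CPM per kb for Hnf4a. Of the reads of that pair, Hnf4aos held between 0.600% and 1.83% in each liver.

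On chow, 3 opposite-strand transcripts were higher in livers labelled HuRHep-/-, among them Hnf4aos (2-fold) and Tbx3os1, while Hnf4a and Tbx3 themselves did not differ detectably. A call required an adjusted p no higher than 0.05 in limma (adjusted across every gene tested), a 1.5-fold or larger difference, and 10 or more reads summed in each group compared. Of the 13526 genes tested, 2.23% were called. Of 56 opposite-strand rows tested 3 were called, all higher (5.36%), and of 128 partners 2 were called (1.56%), Ttc39a higher and Acss2 lower. No pair had both members called.

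Hnf4aos, antisense to the nuclear receptor that controls much of the hepatocyte programme, stood at 5.13, 3.34 and 4.90 CPM in chow livers labelled WT and at 8.06, 8.27 and 10.2 CPM in those labelled HuRHep-/-. Every liver labelled HuRHep-/- lay above every liver labelled WT. The log2 fold change was 1.01 (SE 0.18, limma adjusted p = 0.029). Hnf4a stood at 556, 477 and 539 CPM against 479, 478 and 549 CPM, and the groups overlapped (log2 fold change -0.05, SE 0.09, adjusted p = 0.74).

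Tbx3os1 stood at 4.84, 6.12 and 5.49 CPM in chow livers labelled WT against 7.39, 9.57 and 11 CPM under the HuRHep-/- label, with no overlap (log2 fold change 0.76, SE 0.17, limma adjusted p = 0.048). Tbx3, a T-box factor of pericentral hepatocytes, ranged from 20.8 to 40.3 CPM and from 22.7 to 38.9 CPM, so the groups overlapped (log2 fold change -0.11, SE 0.28).

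When 1 chow liver was left out, Hnf4aos kept its call only without WT replicate 2, and the adjusted p rose to at most 0.11, without HuRHep-/- replicate 2. Tbx3os1 lost its call in all 6 such fits, with adjusted p of 0.051 to 0.17. The log2 fold changes stayed at 0.82 to 1.12 for Hnf4aos and 0.63 to 0.91 for Tbx3os1. In the fit on all 12 libraries Hnf4aos had an adjusted p of 0.078 and Tbx3os1 0.060, and voom weights also ended the Tbx3os1 call (adjusted p = 0.060).

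**Figure D2:**
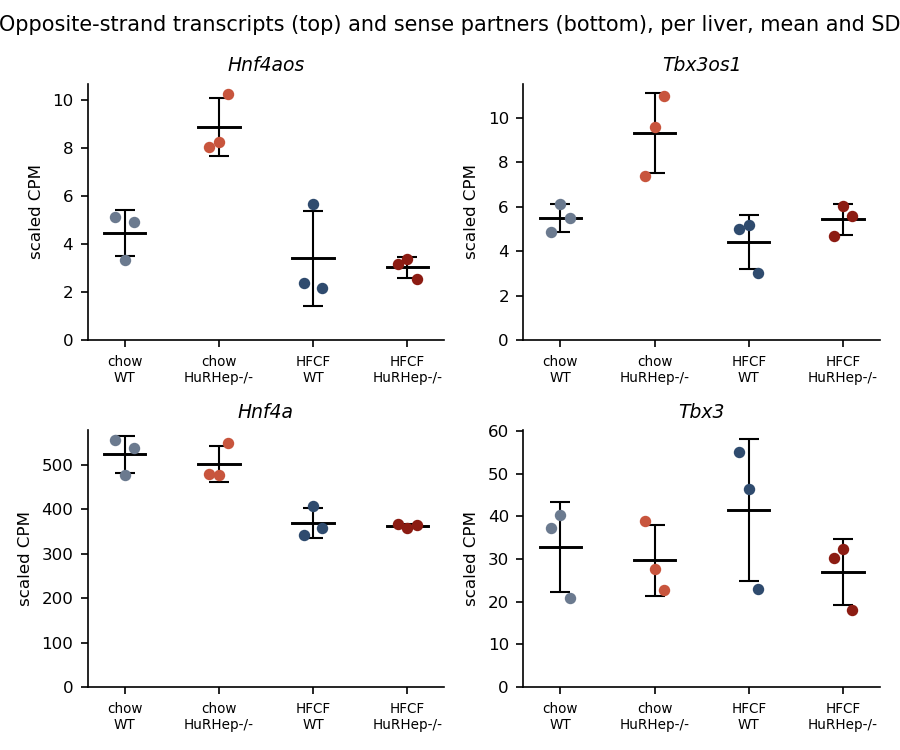
Scaled CPM (y axis) of Hnf4aos and Tbx3os1, called in chow, and of their partners in each of the 4 groups (x axis). Points are livers, the horizontal line is the mean and the bar 1 SD, n = 3. Chow livers labelled HuRHep-/- lay above chow livers labelled WT for Hnf4aos and Tbx3os1, and overlapped them for Hnf4a and Tbx3.

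In HFCF no opposite-strand row met the call. Of 14295 genes tested 3.62% were called, of 57 opposite-strand rows 0, and of 142 partners 2, Igf2 higher and Zfhx2 lower (1.41%). Before adjustment, 4 of the 57 rows and 37 of the 142 partners had p under 0.05 by limma, beside 4220 of the 14295 genes.

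The chow difference in Hnf4aos was not seen in HFCF, but the change between diets did not pass the interaction test. In HFCF it stood at 2.38, 5.68 and 2.16 CPM in livers labelled WT and at 3.17, 3.40 and 2.56 CPM in those labelled HuRHep-/- (log2 fold change -0.04, SE 0.36). WT replicate 2 was high, and without it the log2 fold change was 0.39 (limma adjusted p = 0.22). The interaction of genotype and diet was -1.03 (SE 0.44, adjusted p = 0.32). Tbx3os1 stood at 5.01, 5.19 and 3.02 CPM against 4.66, 6.01 and 5.6 CPM in HFCF (0.32, SE 0.23, adjusted p = 0.39).

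Across the 14535 genes tested for the interaction 0 were called (0%), with 2088 at an unadjusted p under 0.05 in limma, and the same was true of all 64 opposite-strand rows (6 at p under 0.05) and 128 partners (16). The opposite-strand row with the smallest p among those named, Prox1os, had an interaction of -0.73 (SE 0.20, adjusted p = 0.19). Among partners Igf2 had a smaller p, with an interaction of 2.49 (SE 0.52, adjusted p = 0.12).

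As a description of spread, groups did not overlap in 17 of 56 opposite-strand rows in chow (30.4%) beside 29.5% of all genes, and in 12 of 57 in HFCF (21.1%) beside 36.8%. The median log2 fold change of the rows was 0.04 in chow and 0.00 in HFCF, and that of the partners 0.02 and -0.04. The median SE was 0.29 for opposite-strand rows and 0.14 for partners in chow, so a change of the same size was harder to detect in the scarce rows. Both members were tested in 51 pairs in chow, of which 22 moved in the same direction and 29 in opposite directions, and in 54 pairs in HFCF, with 25 and 29.

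**Figure D3:**
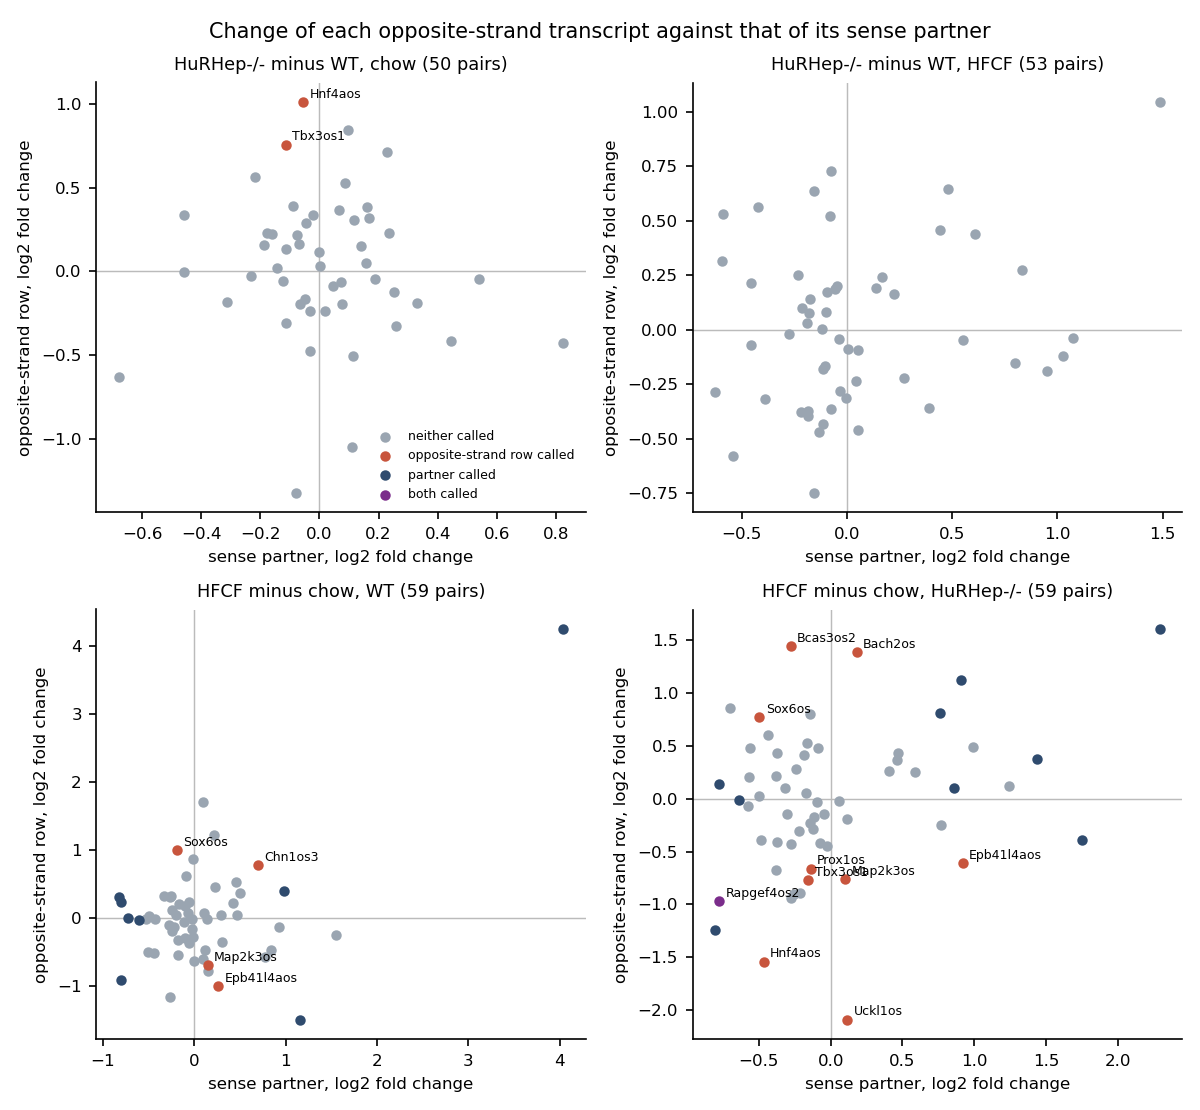
Log2 fold change of each opposite-strand row (y axis) against that of its partner (x axis) for pairs with both members tested, in the 4 comparisons. Colours mark which member met the call, the called opposite-strand rows shown are named, and 1 pair is not shown. In chow Hnf4aos (1.01) and Tbx3os1 (0.76) lie high on the y axis with Hnf4a (-0.05) and Tbx3 (-0.11) near 0 on the x axis.

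Of the 4 partners called between genotypes, Acss2, Igf2 and Zfhx2 faced opposite-strand rows that were too low to test in any comparison, and Ttc39a faced one too low to test on chow. Ttc39a, a tetratricopeptide-repeat protein, had 4, 18 and 11 reads in chow livers labelled WT against 131, 85 and 95 under the HuRHep-/- label (log2 fold change 3.26, SE 0.49, limma adjusted p = 0.018). Its head-to-head neighbour Ttc39aos1, starting 468 bases away and chosen here after its values were seen, had 0, 1 and 0 reads against 13, 6 and 12. On HFCF the WT livers held 250, 62 and 382 reads of Ttc39a and 30, 3 and 34 of Ttc39aos1, so that replicate 2 was the lowest for both.

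In HFCF livers labelled HuRHep-/- Ttc39a had 693, 561 and 514 reads and Ttc39aos1 48, 35 and 28. The genotype difference of Ttc39aos1 in HFCF was 1.04 (log2, SE 0.83, limma adjusted p = 0.43). Between diets in livers labelled WT its adjusted p was 0.0036, but it had only 1 read over the 3 chow livers, under the count minimum of a call. The mean CPM of both rows was lowest in chow WT and highest in HFCF HuRHep-/- livers, but Ttc39aos1 overlapped between genotypes in HFCF. The HFCF genotype difference of Ttc39a was 1.49 (log2, limma adjusted p = 0.15), with 0.74 (0.12) when WT replicate 2 was left out and 2.08 (0.048), a call, when WT replicate 3 was. Leaving out WT replicate 3 or HuRHep-/- replicate 1 or 2 ended its chow call (adjusted p up to 0.085).

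Acss2, which makes acetyl-CoA from acetate, had 3918, 5562 and 6763 reads against 3121, 2865 and 3039 on chow (log2 fold change -0.93, SE 0.17, limma adjusted p = 0.031), and Acss2os had at most 3 reads in any liver. That call was kept in 1 of 6 fits with a liver left out (adjusted p up to 0.13, without HuRHep-/- replicate 2). Igf2, the fetal liver growth factor, had 21, 10 and 26 reads in HFCF livers labelled WT against 154, 86 and 98 under the HuRHep-/- label (2.39, SE 0.39, adjusted p = 0.023), beside at most 6 reads of Igf2os. Zfhx2, a zinc-finger homeobox gene, had 347, 240 and 240 reads against 180, 196 and 174 (-0.77, SE 0.12, adjusted p = 0.023), and Zfhx2os at most 1. The Igf2 and Zfhx2 calls were each kept in 2 of 6 fits, without WT replicate 2 or 3, with adjusted p of up to 0.11 without HuRHep-/- replicate 1.

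The ratio of opposite-strand to sense reads within a library does not depend on how libraries are scaled. It was compared between genotypes over both diets with a two-sided exact permutation test, exchanging genotype labels within each diet in all 400 ways, so that the smallest possible p was 0.005. Of 64 pairs tested, 14 had an exact p of at most 0.05 without adjustment, 7 with a higher and 7 with a lower ratio in livers labelled HuRHep-/-. These p-values are not adjusted for the 64 pairs, and no share over other gene pairs was computed. In limma on single genes, 3184 of 13526 had an unadjusted genotype p under 0.05 on chow and 4220 of 14295 in HFCF.

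Tnfsf13os was at the smallest p. Its log2 ratio to Tnfsf13 was lower in livers labelled HuRHep-/-, with differences of -0.59 on chow and -0.75 in HFCF (exact permutation p = 0.005 over both). Tnfsf13 encodes the lymphocyte survival factor APRIL. Tnfsf13os (chr11:69682138-69691141, plus strand, antisense) had only 12 to 29 reads per liver, and its partner 12 to 68.

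In the Tnfsf13 pair neither member alone passed the test between genotypes. Tnfsf13 stood at 0.658, 0.635 and 0.392 CPM on chow in livers labelled WT and at 0.870, 0.743 and 0.800 CPM in those labelled HuRHep-/-, with 1.03, 0.977 and 1.33 CPM and 1.17, 1.48 and 1.83 CPM in HFCF. The genotype differences in Tnfsf13 alone were 0.54 and 0.39 (log2, limma adjusted p = 0.31 in both diets). For diet Tnfsf13 rose by 0.99 in livers labelled WT and 0.86 in those labelled HuRHep-/- (adjusted p = 0.018 and 0.022). Tnfsf13os lay between 0.371 and 0.921 CPM over the 12 livers and was called in no comparison.

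Tbx3os1 also held a higher ratio to its partner in both diets, by 0.87 on chow and 0.91 in HFCF (exact permutation p = 0.02). The Hnf4aos ratio was higher by 1.06 on chow and differed by -0.01 in HFCF (exact permutation p = 0.075). Within 1 diet, with 3 livers against 3, the exact permutation test cannot go below p = 0.1. Other pairs at p of at most 0.05 included Sp3os (0.30 and 0.60), Wdr83os (0.11 and 0.18) and Cebpzos (0.06 and 0.31) with a higher ratio and Epb41l4aos (-0.86 and -1.12), Ccpg1os (-0.62 and -0.19) and Chd3os (-1.16 and -0.32) with a lower one, all as log2 differences on chow and in HFCF.

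**Figure D4:**
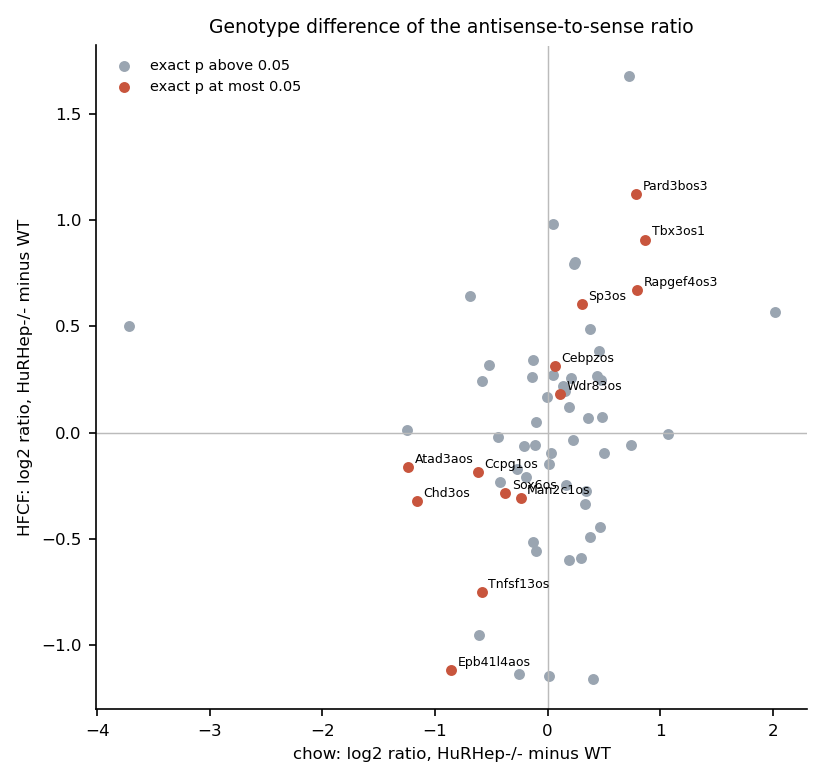
Genotype difference of the log2 antisense-to-sense ratio on chow (x axis) and in HFCF (y axis), livers labelled HuRHep-/- minus livers labelled WT, for the pairs tested but 1. Red points have an exact permutation p of at most 0.05 over both diets and are named. Tbx3os1 (0.87 and 0.91) lies in the upper right and Tnfsf13os (-0.59 and -0.75) in the lower left.

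More members were called between diets than between genotypes. In livers labelled WT, 4 of 64 opposite-strand rows (6.25%) and 15 of 128 partners (11.7%) were called, beside 9.38% of the 14535 genes tested. In livers labelled HuRHep-/- 10 rows (15.6%) and 27 partners (21.1%) were called, beside 19.1% of all genes. Epb41l4aos and Map2k3os were lower and Sox6os was higher in HFCF in both genotypes. The diet comparison in a genotype shares its livers with the genotype comparisons above, so the values are set side by side and are not independent.

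Epb41l4aos, an intergenic RNA on chromosome 18 beside the gene of a band 4.1 cytoskeletal protein, stood at 7.93, 6.69 and 7.65 CPM on chow and 3.96, 3.57 and 3.56 CPM in HFCF in livers labelled WT. In those labelled HuRHep-/- it stood at 5.36, 6.47 and 4.89 CPM and at 3.59, 3.16 and 4.23 CPM. The diets did not overlap in either genotype, and the row fell by 1.00 (log2, SE 0.14, limma adjusted p = 0.00098) and by 0.61 (SE 0.14, adjusted p = 0.0063). The second call was lost to the fold limit without chow HuRHep-/- replicate 2 (-0.49) or HFCF HuRHep-/- replicate 2 (-0.51), under upper-quartile scaling (-0.53) and with at least 10 counts required in every library (-0.57). Epb41l4a itself had 4 to 38 reads per liver and did not pass the test.

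Map2k3os stood at 1.32, 1.44 and 1.60 CPM on chow and 1.03, 0.855 and 0.794 CPM in HFCF in livers labelled WT, and at 1.22, 1.05 and 1.23 CPM and 0.623, 0.674 and 0.754 CPM in those labelled HuRHep-/-. It fell by 0.70 (log2, SE 0.19, limma adjusted p = 0.022) and by 0.76 (SE 0.19, adjusted p = 0.0092). Map2k3, the kinase upstream of p38 that shares the promoter stretch printed above, had log2 changes of 0.15 and 0.10 (SE 0.13) and overlapped between the diets. Of the 64 ratios 24 had an exact permutation p of at most 0.05 between diets, 14 higher and 10 lower in HFCF, in a test chosen after the data were seen. In limma on single genes, 5500 of 14535 had an unadjusted diet p under 0.05 in livers labelled WT and 7011 in those labelled HuRHep-/-. The log2 ratio of the Map2k3 pair was lower in HFCF, at -0.86 averaged over the genotypes (exact permutation p = 0.005, diet labels exchanged within genotypes). Without chow WT replicate 3 or HFCF WT replicate 3 the call in WT was lost (adjusted p up to 0.080).

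Sox6os, inside Sox6, a gene of an SRY-box transcription factor, stood at 0.527, 0.468 and 0.490 CPM on chow and 1.16, 0.855 and 1.02 CPM in HFCF in livers labelled WT, and at 0.464, 0.433 and 0.462 CPM and 0.598, 0.778 and 1.05 CPM in those labelled HuRHep-/-. It rose by 0.99 (log2, SE 0.25, limma adjusted p = 0.016) and 0.78 (SE 0.25, adjusted p = 0.030), on 14 to 44 reads per liver. Sox6 had a log2 change of -0.19 in livers labelled WT and fell by 0.50 in those labelled HuRHep-/- (adjusted p = 0.0048, under the 1.5-fold limit), and the ratio was higher in HFCF by 1.23 (exact permutation p = 0.005). The WT call was lost without HFCF WT replicate 1 (adjusted p = 0.061), and the HuRHep-/- call in 5 of 6 fits with a liver left out (adjusted p up to 0.12), all but the one without HFCF HuRHep-/- replicate 1, and with no filter on low counts (adjusted p = 0.061).

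**Figure D5:**
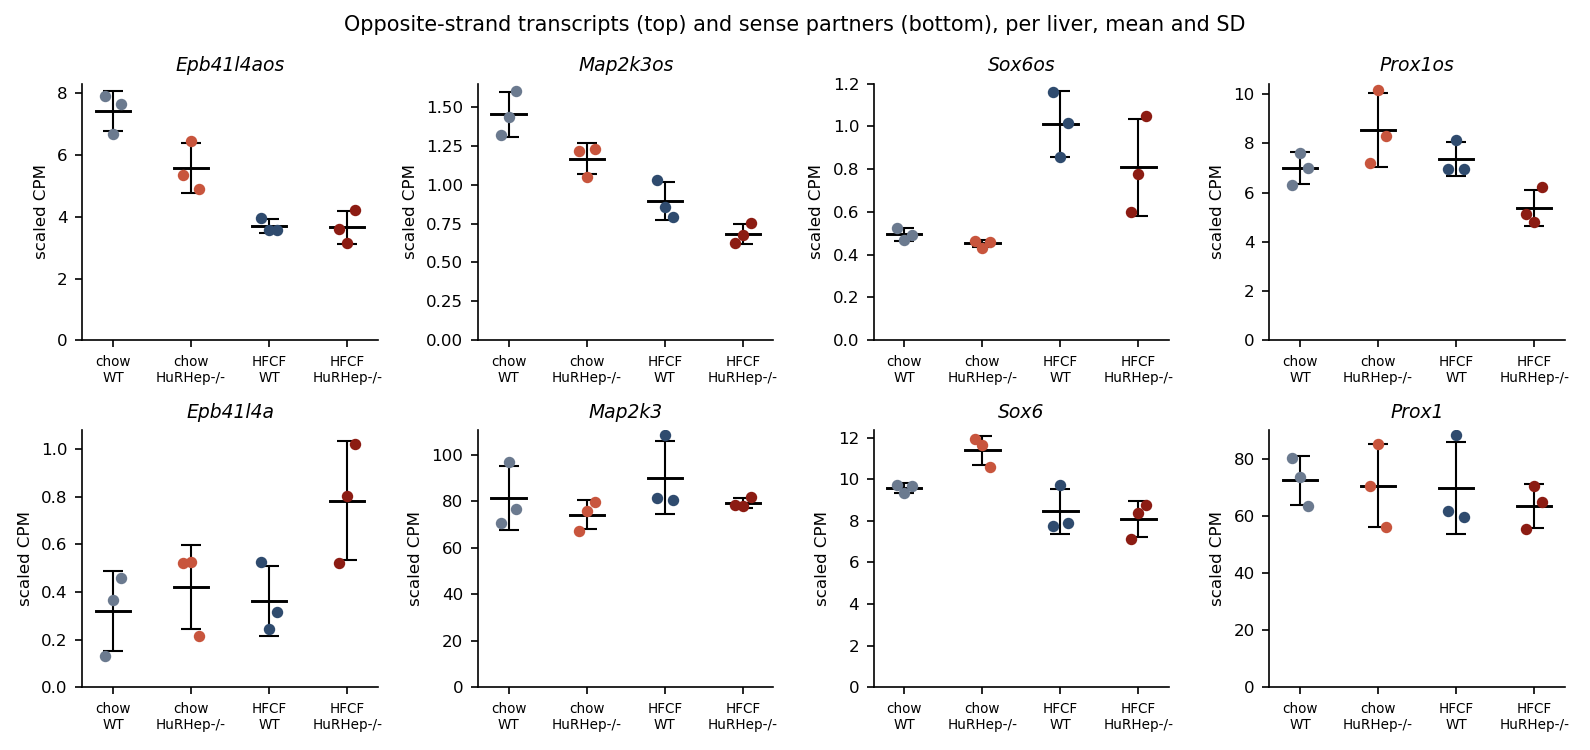
Scaled CPM (y axis) of Epb41l4aos, Map2k3os, Sox6os and Prox1os and their partners in the 4 groups (x axis). Points are livers, the horizontal line is the mean and the bar 1 SD, n = 3. Epb41l4aos and Map2k3os lie lower and Sox6os higher in HFCF than in chow in both genotypes.

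In livers labelled HuRHep-/-, Hnf4aos and Prox1os were lower in HFCF, 2 of the 3 tested rows facing genes on the liver transcription factor list, beside 19.1% of all genes called. Hnf4aos fell by 1.54 (log2, SE 0.31, limma adjusted p = 0.0031) from the chow to the HFCF livers whose values are given above, with the call kept in all 6 fits with a liver left out. In livers labelled WT its change was -0.51 (SE 0.31, adjusted p = 0.25), and -0.95 (adjusted p = 0.0074) without HFCF WT replicate 2. Hnf4a fell by 0.51 in livers labelled WT and by 0.47 in those labelled HuRHep-/- (adjusted p = 0.0026 and 0.0020), under the 1.5-fold limit.

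Prox1 is a homeobox gene of hepatocytes and lymphatic endothelium, and Prox1os overlaps its exons by 133 bases. Prox1os stood at 7.19, 10.2 and 8.31 CPM on chow and 5.11, 4.82 and 6.22 CPM in HFCF in livers labelled HuRHep-/-, and fell by 0.66 (log2, SE 0.14, limma adjusted p = 0.0047). In livers labelled WT it stood at 6.32, 7.62 and 7.0 CPM and at 6.94, 8.15 and 6.96 CPM. The call was lost to the fold limit without chow HuRHep-/- replicate 2 (-0.53) and under upper-quartile scaling. Prox1 overlapped between diets in both. Tbx3os1 fell by 0.77 (SE 0.21, adjusted p = 0.015) in livers labelled HuRHep-/-, and its change in those labelled WT was -0.35 (SE 0.21, adjusted p = 0.25). That call was lost without chow HuRHep-/- replicate 3 or HFCF HuRHep-/- replicate 1 (adjusted p up to 0.060). Hnf4a and Prox1 themselves were called in no comparison.

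Of the remaining called rows, Bach2os rose by 1.39 (log2, SE 0.33, limma adjusted p = 0.0069) in livers labelled HuRHep-/-, from 0.348, 0.341 and 0.369 CPM to 1.02, 0.778 and 1.08 CPM, with Bach2, a lymphocyte transcription factor, overlapping between diets. Bcas3os2 rose by 1.44 (SE 0.52, adjusted p = 0.045) on 3 to 27 reads per liver, and only the fit without HFCF HuRHep-/- replicate 3 kept that call (adjusted p up to 0.20 in the others). It was also lost with no filter on low counts (adjusted p = 0.055) and with voom weights (0.0503). No chow liver held enough Bcas3os2 reads to meet the low-count filter, so the row passed it through HFCF livers alone. In livers labelled WT it went from 2, 3 and 2 reads to 12, 7 and 11, with too few chow reads for a call. Uckl1os, facing a uridine kinase gene, fell by 2.09 (SE 0.45, adjusted p = 0.0045) from 16, 13 and 13 reads to 5, 2 and 4, with the adjusted p under 0.05 in every fit with a liver left out but the count minimum missed in the 3 without an HFCF liver. In this comparison Uckl1os reached the level of the low-count filter only in chow livers. Bach2os, Bcas3os2 and Uckl1os all rested on few reads.

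Rapgef4os2 and Rapgef4 were the 1 pair with both members called. Rapgef4 encodes a cAMP-activated exchange factor for Rap. In livers labelled HuRHep-/- Rapgef4os2 fell by 0.97 (log2, SE 0.33, limma adjusted p = 0.039), from 2.87, 2.04 and 3.29 CPM to 1.20, 1.22 and 1.75 CPM, and Rapgef4 by 0.77 (SE 0.14, adjusted p = 0.0018), from 118, 104 and 164 CPM to 63.9, 76.9 and 82.5 CPM. The row's call was kept in 2 of 6 fits with a liver left out, without chow HuRHep-/- replicate 2 or HFCF HuRHep-/- replicate 3 (adjusted p up to 0.13 in the others), and was lost under upper-quartile scaling.

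In livers labelled WT, Rapgef4 fell by 0.80 (adjusted p = 0.0030) and Rapgef4os2 changed by -0.92 (SE 0.33, adjusted p = 0.066). Their exons overlap by 337 bases on opposite strands. Rapgef4os2 held 0.872% to 2.37% of the reads of the pair, and how many of them may come from the Rapgef4 strand was not measured. Chn1os3, facing a Rac GTPase-activating protein gene, rose in livers labelled WT by 0.78 (SE 0.22, adjusted p = 0.027), from 1.22, 1.87 and 1.11 CPM to 2.35, 2.66 and 2.10 CPM, and the difference from its change in livers labelled HuRHep-/- (0.37) was not significant (interaction adjusted p = 0.58). Chn1 itself changed by 0.69 in livers labelled WT (log2, SE 0.44, adjusted p = 0.28) and rose by 1.44 in those labelled HuRHep-/- (SE 0.44, adjusted p = 0.024). The Chn1os3 call was kept in 2 of 6 fits (adjusted p up to 0.10 without chow WT replicate 3).

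Marker sums, with each diet scaled on its own, also moved with diet. From chow to HFCF, Kupffer cell and macrophage markers stood at 134 to 173 against 237 to 381 CPM in livers labelled WT and at 190 to 281 against 325 to 539 CPM in those labelled HuRHep-/-, where cholangiocyte markers stood at 55.1 to 88.2 against 159 to 278 CPM. Stellate cell markers stood at 217 to 252 against 287 to 535 CPM in livers labelled WT and at 172 to 259 against 510 to 608 CPM in those labelled HuRHep-/-. The hepatocyte sums given at the start were lower in HFCF without overlap in both genotypes, as were those of neuron markers (9.76 to 10.62 against 6.70 to 9.72 CPM and 14.1 to 19.7 against 6.25 to 9.73 CPM). In livers labelled HuRHep-/- the sums of lymphocyte (7.14 to 10.1 against 17.7 to 18.2 CPM), endothelial (118 to 150 against 174 to 180) and smooth muscle markers (10.64 to 13.8 against 23.1 to 26.8) were also higher without overlap. Neutrophil sums there were 0.716 to 1.71 against 1.86 to 2.02 CPM. TMM factors of these livers were 0.98 to 1.06 on chow and 1.04 to 1.06 in HFCF. Over all 12 libraries they were 0.91 to 0.99 and 1.11 to 1.13. On that common scale sums higher in HFCF would lie closer together. Neutrophil sums in HuRHep-/- and stellate cell sums in WT livers would overlap. The part of the marker sums in the diet differences was not tested.

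Among partners called for diet in livers labelled HuRHep-/-, 21 were higher and 6 lower, beside 2057 higher and 714 lower among all genes called. The higher ones included Igf2 (log2 2.84), Ttc39a (2.29), the interleukin gene Il1b (1.89), Pmepa1 (1.58), which is induced by TGF-beta, the hexokinase Hk1 (1.19) and the mesenchymal factor Zeb2 (0.76). The lower ones included the dicarboxylate transporter Slc13a2 (-3.0) and the growth factor receptor Egfr (-1.36). In livers labelled WT 7 partners were higher, among them Ttc39a (4.04) and the RNA-helicase sensor Dhx58 (0.91), and 8 lower, among them Slc13a2 (-2.83) and Egfr (-1.13), beside 892 higher and 471 lower among all genes called. Both members were tested in 60 pairs, with 31 in the same direction in livers labelled WT and 35 in those labelled HuRHep-/-.

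Called rows came from every geometry class. Over 12 libraries 40 tested rows overlapped partner exons, 9 overlapped the body alone, 10 were head to head and 5 lay apart. Rows called for diet in livers labelled HuRHep-/- numbered 5, 3, 1 and 1 in these classes. Between genotypes, head-to-head pairs moved in the same direction in 7 of 9 on chow and 7 of 10 in HFCF, pairs with overlapping exons in 14 of 33 and 15 of 33, and all pairs in 22 of 51 and 25 of 54. Between diets, in livers labelled WT and HuRHep-/-, the counts were 4 of 10 and 3 of 10, 23 of 38 and 27 of 38, and 31 of 60 and 35 of 60. Pairs overlapping in the body alone moved the same way in 1 of 6 and 2 of 7 between genotypes, and in 4 of 8 and 4 of 8 between diets. Pairs lying apart did so in 0 of 3 and 1 of 4, and in 0 of 4 and 1 of 4. Of all pairs with starts within 2000 bases, overlapping or not, 13 of 23 and 12 of 24 did so between genotypes. Between diets these were 11 of 26 and 14 of 26. The differences between classes and comparisons were not tested. Of 24 rows facing genes of other transcription factor families, taken by gene name from a fixed list that leaves out Bach2, Sp3 and Jun, 6 were tested on chow and 1 of these (Tbx3os1) was called, beside 2.23% of all genes.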

How the data were processed

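RNA was total liver RNA with integrity numbers above 6.0, made into stranded libraries. The study's methods give reverse-strand alignment for the chow reads, and how completely reads of facing strands were kept apart was not measured. With CLC Genomics Workbench and GRCm38.p6 the authors aligned reads and made the deposited read counts, 1 table per diet, written as text with comma separators. Counts as deposited were converted to numbers, and 0 columns of other samples were found. log2 CPM was computed with TMM factors and a pseudocount of 0.5 and fitted with limma 3.58.1 in R 4.3.3 with a variance trend and Benjamini-Hochberg adjustment. Low genes were left out unless 3 or more libraries reached a CPM worth 10 counts at median depth and the row summed to 15. Genotype was fitted within a diet, diet and interaction over 12 libraries, whose scaling gives the CPM printed, except that marker sums were scaled within each diet. Positions and exon lengths came from GENCODE M21. The scripts were tested on simulated data.

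Members and lists were chosen with earlier results of these data known. The diet contrast of the ratio, Ttc39aos1, Pitpnm2 and the partners named for diet were chosen after their values were seen. Other pairs named were those with a called opposite-strand row, the 6 highest rows, pairs whose partner was called between genotypes with a tested row (0 pairs), and those at the smallest ratio p. Hectd2os was not analysed here. Some members that this rule would name are not reported here. Only 3 rows per table ended in as with a named partner, too few to compare. Whether the 3 livers of a group came from separate litters or batches is not given in the sources used here, so p-values measure only the spread between these livers. 0 pairs of libraries held identical counts.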

Additional observations from a re-analysis of the deposited data

Results flagged for a closer look

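Pitpnm2, a phosphatidylinositol transfer protein gene facing Pitpnm2os1 and Pitpnm2os2, was the 1 member in which the genotype groups did not overlap in either diet and lay in opposite directions. On chow it had 987, 841 and 922 reads under the WT label against 1303, 1149 and 1263 under the HuRHep-/- label (log2 fold change 0.31, limma adjusted p = 0.059). In HFCF the raw reads, 1415, 1450 and 1273 against 1306, 1176 and 1387, overlapped before scaling to library size and did not after it (-0.30, adjusted p = 0.10). The interaction was -0.59 (unadjusted p = 0.00063, adjusted p = 0.13), so the difference between the diets did not pass the test. Its opposite-strand rows had at most 4 reads in any liver. With 3 livers per group no group was tested for a liver standing far from the others.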

How the results depend on the processing

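RLE or upper-quartile factors, other filters, voom weights and a pseudocount of 2 kept the number of members called within 1.5 times of that reported, except for the genotype comparison in HFCF, where voom weights gave 4 in place of 2. These counts do not say which members, and the calls of Tbx3os1 on chow and of Sox6os and Bcas3os2 for diet in HuRHep-/- were lost under voom weights or with no filter on low counts. Without the fold change in the call there were 6 in HFCF, 38 for diet in WT and 60 for diet in HuRHep-/- in place of 2, 19 and 37, and the fit on all 12 libraries gave 6 in HFCF. Leaving out 1 library gave 0 to 3 called members in chow (5 reported), 0 to 11 in HFCF, 11 to 25 for diet in WT, 27 to 34 for diet in HuRHep-/- and 0 to 1 for the interaction, and 10 to 19 pairs with a differing ratio (14 reported). No chow call was left without WT replicate 3 or HuRHep-/- replicate 1 or 2, none in HFCF without WT replicate 1 or any HuRHep-/- replicate, and the 11 in HFCF came without WT replicate 3, which also gave the 1 interaction call and the 11 for diet in WT (12 without chow WT replicate 3). Fits without 1 library have a group of 2. Of 22 single fold changes, 0 reversed in any of 291 alternative fits, and 61 of 132 fits with a library left out and 17 of 159 others had lost an adjusted p under 0.05. The 159 include replicate-block fits, which for diet did not compare group means.

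Nothing in the labels says that a replicate number marks shared litters or days, and the libraries were not treated as paired. Correlations of same-numbered deviations ran from -0.03 to 0.11 on chow and from 0.09 to 0.21 in HFCF, where, as a hint from the data alone, every library correlated best with its own number, which was not so on chow. With the replicate number as a block 9 members were called in HFCF and 5 on chow. With it 5 ratios differed in place of 14, with a smallest possible p of 0.031. For diet the block fit gave 12 members in WT and 30 in HuRHep-/-. As fitted, it set the HFCF level of replicate 3 against the chow level of replicate 1, not the group means. Its counts and adjusted p-values for diet therefore do not bear on the diet calls above. Whether the diet calls hold with a replicate block was not tested. The cause of the shifts in HFCF and in the ratios was not tested. With 64 of 152 rows above the filter, most opposite-strand transcripts were too scarce for any comparison at this depth.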
